A study of Mus musculus with 6 samples.

Results

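Dendritic nuclei of the subcutaneous white fat of mice on a high-fat diet were described here, 401 of the 61496 nuclei kept from 65162 barcodes. A nucleus was counted as dendritic when it held at least 500 genes, at most 5% mitochondrial UMIs (unique molecular identifiers, 1 per captured RNA molecule), 1 UMI or more of at least 3 of 8 genes (Flt3, Clec9a, Xcr1, Cd209a, Zbtb46, Ccr7, Batf3 and Siglech), and no UMI of 4 barred genes, Cd163 of macrophages, Pax5 of B cells, Cd3e of T cells and Pdgfra of stromal progenitors. The nuclei were thus chosen by measured UMIs of these 12 genes, whose levels are given as a description only. The knockout libraries, from GPSM1ΔTreg mice, held 148, 56 and 63 dendritic nuclei, against 74, 29 and 31 in the flox libraries, from GPSM1f/f mice. The study isolated nuclei from subcutaneous fat on a sucrose gradient, sorted them on the DNA stain DAPI and prepared 10x Genomics 3' libraries, with 3 mice and 3 libraries per genotype. The library label puts all mice at 12 weeks of high-fat feeding, and the protocol starts the diet at 7 weeks of age and gives its length as 5 to 12 weeks. Both genotypes are named for the floxed Gpsm1 gene, which encodes a regulator of inhibitory G proteins, and the knockout label places its loss in regulatory T cells. The Cre driver, the deleted exons and the sex of the mice were not given in the sources used here.

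Dendritic cells take up antigen in tissues, present it to T cells and set whether those T cells respond or are restrained. Conventional dendritic cells of the cDC1 kind (Clec9a, Xcr1, Batf3) present antigen from dead cells to CD8+ T cells, those of the cDC2 kind (Cd209a, Sirpa) present mainly to CD4+ T cells, and plasmacytoid dendritic cells (Siglech, Tcf4) are known for type I interferon. On maturation, conventional dendritic cells of either kind switch on Ccr7, the chemokine receptor that guides them to lymph nodes, together with Fscn1, Relb, Ccl22 and Cd40, and in fat they meet regulatory T cells, whose upkeep depends on antigen-presenting cells.

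The libraries held 38857282 to 41951373 UMIs in knockouts and 45007561 to 55342903 in flox mice. Median depth of the dendritic nuclei was 3437.5, 2667.5 and 3483 UMIs in the knockout libraries, and 3608, 2869 and 3934 UMIs in the flox libraries. Kept nuclei of all types had medians of 2119 to 2757 UMIs in knockouts and 2399 to 3337 in flox mice. Knockout library 1 stood apart: it held 148 of the 267 knockout dendritic nuclei, 6394 B and T nuclei (3 or more genes of either marker list; 2057 and 4158 in the other knockout libraries and 527 to 1891 in the flox libraries) and only 868 macrophage nuclei. No dendritic barcode occurred in more than 1 library, although library pairs shared 24 to 39 kept barcodes. Scrublet, which scores nuclei by their likeness to simulated doublets, marked 11, 28 and 8 dendritic nuclei in the knockout libraries, against 21, 4 and 4 in the flox libraries, so knockout library 2 had 28 of its 56 marked.

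The label was checked on genes that the choice had not used. The 20 genes that stood furthest above all other kept nuclei included Wdfy4, which cDC1 need for cross-presentation, at 2589 ± 907 UMIs per 1000000 UMIs of the library's dendritic nuclei (CPM) over the 6 libraries (SD), against 117 CPM in the rest. Cadm1, an adhesion molecule of cDC1, reached 1857 ± 682 CPM, against 81.6 CPM. Zfp366, a dendritic transcriptional regulator, reached 606 ± 267 CPM, against 21.2 CPM, and Ly75, the antigen-uptake receptor DEC-205, reached 287 ± 107 CPM, against 11.0 CPM. Cacnb3, a calcium channel subunit of mature dendritic cells, had 350 ± 257 CPM, against 4.49 CPM. Each of these 5 genes is known from dendritic cells, and none was part of the choice. They were picked from the 20, which were led by Gm36723, Gm43914, which lies within Clec9a, and Htr7. In macrophage nuclei Wdfy4, Cadm1, Zfp366, Ly75 and Cacnb3 stood at 204, 286, 12.8, 6.33 and 1.49 CPM. In B nuclei they stood at 366, 45.2, 15.6, 22.0 and 3.26 CPM.

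Of the 8 counted genes, Zbtb46 was seen in 84.3% of dendritic nuclei, Flt3 in 83.0%, Batf3 in 55.6%, Clec9a in 52.9%, Ccr7 in 26.9%, Xcr1 in 22.7%, Cd209a in 15.0% and Siglech in 11.5%. Clec9a was seen in 42.7% of knockout and 73.1% of flox members, and Ccr7 in 33.7% and 13.4%. In nuclei with 6 or more adipocyte genes, which should lack them, Flt3 was seen in 0.246% to 0.673% per library and Ccr7 in 0.0307% to 1.88%, whereas Zbtb46 was seen in 18.7% to 31.3%. In macrophage nuclei Batf3 was seen in 11.8% to 19.6% per library, Zbtb46 in 10.7% to 19.5%, Siglech in 3.44% to 8.99% and Cd209a in 3.88% to 6.34%, so these 4 genes separate poorly from them, while Flt3 was seen in 0.296% to 2.13%, Clec9a in 0.702% to 1.50%, Ccr7 in 0.0739% to 2.06% and Xcr1 in 0% to 0.344%. Such adipocyte nuclei met the whole dendritic rule in 9 of 7068 cases (0.127%) in knockouts and 11 of 9607 (0.115%) in flox mice, at median depths of 6230.5 and 8095 UMIs. Exactly 3 of the 8 genes were held by 227 members, 4 by 141, 5 by 32 and 6 by 1, while 626 nuclei with exactly 2 fell outside. Wdfy4 stood at 1531 CPM just inside the threshold and 274 CPM just outside it, and Naaa, a lysosomal amidase of cDC1, at 426 and 76.8 CPM. The B cell factor Ebf1 ran the other way, with 911 CPM just inside and 2747 CPM just outside.

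Genes of other cell types were present. At least 3 adipocyte genes were found in 38 of 267 knockout and 40 of 134 flox members, and at least 3 macrophage genes in 22 and 28. The counts were 21 and 23 for stromal progenitors, 20 and 8 for B cells and 17 and 13 for monocytes. They were 6 and 10 for endothelium and 6 and 1 for T cells. As shares of members, those of B and T cells were larger in knockouts and the others larger in flox mice. No member held 3 genes of the NK cell, plasma cell, neutrophil, mast cell or lymph node stroma lists. The defining NK genes Ncr1 and Klrb1c and the neutrophil genes S100a8 and S100a9 were at 0 UMIs in all members.

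The share of dendritic nuclei among kept nuclei was 1.38%, 0.544% and 0.615% in the knockout libraries, with exact 95% Clopper-Pearson bounds of 1.17% and 1.62%, 0.411% and 0.706%, and 0.473% and 0.787%. The flox libraries had 0.730% (bounds 0.574% and 0.916%), 0.292% (0.196% and 0.420%) and 0.303% (0.206% and 0.430%). Knockout libraries 2 and 3 lay between flox library 1 and the other 2 flox libraries, so the groups overlapped. The means were 0.848% ± 0.465 in knockouts and 0.442% ± 0.250 in flox mice (SD, n = 3 each), a ratio of 1.92 that did not pass the exact two-sided permutation test (p = 0.3, where 3 against 3 libraries allow no p below 0.1). The intervals cover counting error only, and the ratio was 1.31 without knockout library 1 and 2.84 without flox library 1. These shares rest on the rule, whose barred genes did not act alike in the genotypes. Of nuclei with 3 or more counted genes, 380 in knockouts and 194 in flox mice, Pax5 barred 56 and 7 and Cd3e 20 and 0. Cd163 barred 53 and 48 and Pdgfra 21 and 11. After each nucleus was thinned to 1500 UMIs, the shares were 0.985%, 0.330% and 0.295% in knockouts, against 0.482%, 0.128% and 0.215% in flox mice (exact permutation p = 0.4), with 2109 to 3185 shallower nuclei left out per knockout library and 1311 to 3252 per flox library. Thinned to 1000 UMIs, the shares were 0.455%, 0.181% and 0.179% in knockouts, against 0.395%, 0.117% and 0.0842% in flox mice, and the difference of the means was 0.073 percentage points, against 0.261 at 1500 UMIs (exact permutation p = 0.5).

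Set against macrophages, the other large group of myeloid cells in fat, dendritic nuclei were more frequent in every knockout library. There were 17.1, 3.32 and 4.34 dendritic nuclei per 100 macrophage nuclei in knockouts, against 2.47, 1.07 and 1.43 in flox mice. The groups did not overlap (8.23 ± 7.65 against 1.66 ± 0.728, SD, n = 3 each, exact permutation p = 0.1, the smallest possible). Macrophage nuclei themselves numbered 868, 1689 and 1453 in knockouts and 2993, 2707 and 2169 in flox mice, and the ratio was 4.97-fold with all libraries and 2.31-fold without knockout library 1. The groups overlapped without Scrublet-marked nuclei (difference of the means 6.70 per 100, exact permutation p = 0.2) and with 4 or more of the 8 genes required (2.32, exact permutation p = 0.3), against 6.58. Per 100 B and T nuclei the order turned round, with 2.31, 2.72 and 1.52 dendritic nuclei in knockouts and 10.0, 5.50 and 1.64 in flox mice (exact permutation p = 0.3).

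The dendritic nuclei were of several kinds. They were split by which of 4 marker sets they held: Ccr7, Clec9a or Xcr1, Cd209a, and Siglech. There were 172 nuclei with only Clec9a or Xcr1, 95 with only Ccr7, 32 with only Cd209a, 10 with only Siglech, 59 with more than 1 set and 33 with none, which entered through Flt3, Zbtb46 and Batf3.

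Genes outside the choice are given by class as a description, with UMIs pooled over libraries. In the Clec9a or Xcr1 class, Wdfy4 had 5183 CPM, Cadm1 3634 CPM, Irf8, the factor that cDC1 depend on, 1481 CPM and the double-stranded RNA receptor Tlr3 413 CPM, levels that lay above those of every other class. The Cd209a class had the highest levels of the cDC2 gene Clec10a (695 CPM), of the integrin Itgam (283 CPM) and of H2-Ab1, a chain of MHC class II (2934 CPM). Mgl2, Irf4, Klf4, Cd300a and Clec4a2 of the cDC2 list were highest there too, but Sirpa, Sept3, Cd7 and Clec4a4 were not. Sirpa stood at 367 CPM there and 418 CPM in the 10 nuclei of the Siglech class. Sept3 stood at 7.64 CPM there and 185 CPM in the Clec9a or Xcr1 class. In the Ccr7 class, Wdfy4 was at 46.5 CPM and H2-Ab1 at 92.9 CPM, while Relb, the NF-kappaB subunit of maturation, stood at 1513 CPM, Cacnb3 at 1309 CPM, Fscn1, the actin-bundling protein of mature dendritic cells, at 860 CPM and Ccl22, a chemokine that attracts regulatory T cells, at 333 CPM. The class with no set had levels next below those of the Ccr7 class in these genes, with Relb at 1056 CPM, Cacnb3 at 841 CPM and Fscn1 at 692 CPM, but Ccl22 stood at 59.5 CPM and H2-Ab1 at 618 CPM there. That H2-Ab1 level pooled 382 CPM in 29 knockout nuclei with 1685 CPM in 4 flox nuclei. In the same nuclei Relb pooled 1190 CPM in knockouts with 452 CPM in flox mice, Cacnb3 972 with 247 CPM and Fscn1 836 with 41.1 CPM, so these levels were mainly those of knockouts. Nuclei with more than 1 set had the highest Tcf4, the factor of plasmacytoid cells, at 3976 CPM, and Runx2 at 2181 CPM (both genes added to the description after their values were seen). Of these 59, 17 knockout and 2 flox nuclei joined Clec9a or Xcr1 with Siglech.

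**Figure D1:**
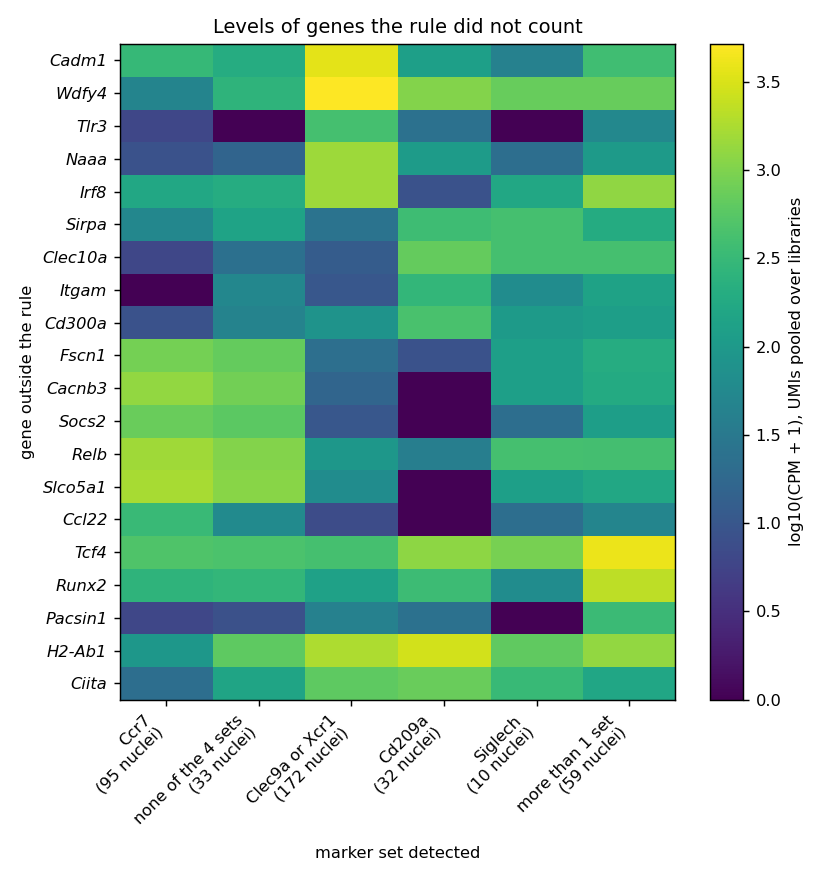
Levels of 20 genes outside the choice (rows) in the 6 classes of dendritic nuclei (columns), as log10(CPM + 1) with UMIs pooled over libraries, from dark for low to yellow for high. Wdfy4 and Cadm1 are brightest in the Clec9a or Xcr1 class (5183 and 3634 CPM), Relb and Cacnb3 in the Ccr7 class (1513 and 1309 CPM) and Tcf4 in nuclei with more than 1 set (3976 CPM).

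The classes rest on UMIs of genes used in the choice, so their shares are given as a description, with no test. The Ccr7 class made up 30.4%, 25.0% and 38.1% of dendritic nuclei in knockouts (45, 14 and 24 nuclei), against 10.8%, 3.45% and 9.68% in flox mice (8, 1 and 3 nuclei). The means were 31.2% ± 6.58 in knockouts and 7.98% ± 3.96 in flox mice (SD, n = 3 each). The Clec9a or Xcr1 class made up 28.4%, 46.4% and 31.7% in knockouts and 62.2%, 72.4% and 54.8% in flox mice (35.5% ± 9.60 against 63.1% ± 8.83, SD, n = 3 each). The class with no set was 11.5%, 8.93% and 11.1% in knockouts, against 2.70%, 3.45% and 3.23% in flox mice. Without the Scrublet-marked nuclei, which were 29 of the 95 in the Ccr7 class and 15 of the 172 in the Clec9a or Xcr1 class, the differences of the means were 18.9 and -22.0 percentage points, against 23.2 and -27.6 with them, and the libraries of the genotypes overlapped in both classes.

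Counts against all kept nuclei are likewise a description. There were 42.1, 13.6 and 23.4 Ccr7-class nuclei per 10000 kept nuclei in knockouts, against 7.90, 1.01 and 2.94 in flox mice, a ratio of the means of 6.68. That ratio was 4.69 without knockout library 1 and 13.4 without flox library 1. Without Scrublet-marked nuclei the counts were 44.3, 0 and 21.3 per 10000 in knockouts, against 0, 0 and 3.22 in flox mice, as all 14 Ccr7-class nuclei of knockout library 2 and all 8 of flox library 1 were marked. The Clec9a or Xcr1 class numbered 39.3, 25.3 and 19.5 per 10000 in knockouts and 45.4, 21.2 and 16.6 in flox mice, with means of 28.0 ± 10.1 and 27.7 ± 15.5 (SD, n = 3 each). The Cd209a class averaged 5.71 per 10000 in knockouts and 4.61 in flox mice, and the Siglech class 2.55 and 0.653.

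**Figure D2:**
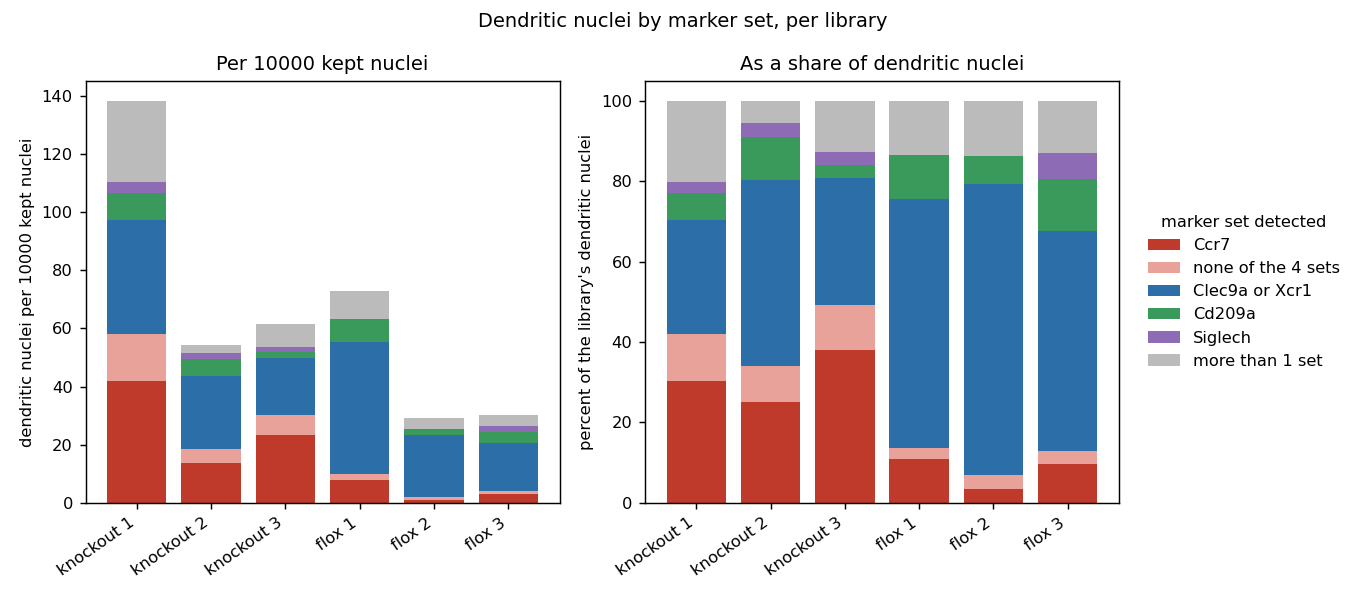
Dendritic nuclei of each library by marker set, with knockout libraries left of flox libraries; the left panel stacks them per 10000 kept nuclei and the right panel as a percentage of the library's dendritic nuclei. The Ccr7 band takes 25.0% to 38.1% in the knockout libraries and 3.45% to 10.8% in the flox libraries, and knockout library 1 has the tallest column in the left panel.

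Nuclei were also counted by genes that had no part in the choice. Nuclei with 3 or more of the other 17 genes of a maturation list were 58.1%, 46.4% and 68.3% of dendritic nuclei in knockouts, against 25.7%, 17.2% and 41.9% in flox mice. Nuclei with 3 or more of 9 other cDC1 genes were 35.1%, 51.8% and 44.4% in knockouts, against 73.0%, 86.2% and 64.5% in flox mice. Neither pair overlapped (exact permutation p = 0.1 each, the smallest possible). Without Scrublet-marked nuclei both overlapped, with differences of the means of 24.4 percentage points for the maturation count and -22.8 for the cDC1 count, against 29.3 and -30.8 with them (exact permutation p = 0.3 each). With 2 or more of the 8 genes required, the difference of the cDC1 means was -6.58 percentage points (exact permutation p = 0.4). The same maturation count was met by 28.5% of adipocyte nuclei in knockouts and 30.9% in flox mice at median depths of 6225 and 8088.5 UMIs, by 10.9% and 9.11% of macrophage nuclei, and by 17.0% and 17.2% of B nuclei. The cDC1 count was met by 11.0% of adipocyte nuclei in knockouts and 14.6% in flox mice, by 29.5% and 32.1% of macrophage nuclei, and by 15.6% and 22.7% of B nuclei, and the 35.1% of knockout library 1 lay near the macrophage values. All 95 Ccr7-class nuclei and 93.9% of those with no set met the maturation count, against 21.5% of the Clec9a or Xcr1 class. For the cDC1 count these values were 8.42%, 15.2% and 95.3%. Both counts thus followed the classes, which rest on genes of the choice, so their tests give no evidence separate from the class shares or from each other.

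UMIs of the dendritic nuclei were then summed per library (536610, 199712 and 259124 in knockouts, 289762, 100464 and 166985 in flox mice) and compared with edgeR's quasi-likelihood test. Of 4731 genes tested, 127 (2.68%) had a Benjamini-Hochberg adjusted p under 0.05. Of these, 96 rose in knockouts (2.03%) and 31 fell (0.655%), 1 of them Clec9a from the choice itself. The list with the most calls was that of maturation: of its 14 tested genes outside the choice, 10 rose and none fell, all 14 had positive log2 fold changes, and their median log2 fold change was 1.74, beside -0.01 over all genes tested. In sums over mixed classes, more nuclei of a class and more RNA per nucleus cannot be told apart. The count of 127 was 60 without knockout library 1, 35 without knockout library 3, 8 without flox library 1 and 35 without flox library 2. It was 0 when Scrublet-marked nuclei were removed, where 270 of 3472 genes had an unadjusted p under 0.05 and all 88 of the earlier calls still tested kept their sign.

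Fscn1 (mm10 chromosome 5, 142960343 to 142973185, plus strand) stood at 524, 285 and 455 CPM in knockouts, against 79.4, 9.95 and 47.9 CPM in flox mice. All 3 knockout libraries were above all flox libraries, as in 10.2% of the genes tested. The mean was 421 ± 123 CPM in knockouts and 45.7 ± 34.8 CPM in flox mice (SD, n = 3 each), a log2 fold change of 3.04 (SE 0.44, edgeR adjusted p = 0.0107). Relb (chromosome 7, 19606217 to 19629438, minus strand) had 837, 566 and 749 CPM in knockouts and 280, 159 and 263 CPM in flox mice, a log2 fold change of 1.63 (SE 0.26, edgeR adjusted p = 0.011). Its groups did not overlap either. Cacnb3 (chromosome 15, 98630840 to 98644529, plus strand) had 654, 551 and 536 CPM, against 166, 79.6 and 114 CPM (log2 fold change 2.25, SE 0.27, edgeR adjusted p = 0.00371).

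Further members of the maturation list rose with them. Slco5a1, a solute carrier of mature dendritic cells, had 870, 636 and 899 CPM in knockouts and 114, 39.8 and 150 CPM in flox mice (log2 fold change 2.95, edgeR adjusted p = 0.00371). Ccl5 (chromosome 11, 83525778 to 83530518, minus strand), a chemokine that attracts T cells, had 242, 200 and 224 CPM in knockouts, against 31.1, 39.8 and 18.0 CPM (log2 fold change 2.99, edgeR adjusted p = 0.00249). Neither gene's groups overlapped. Birc2, an inhibitor of apoptosis in NF-kappaB signalling, rose by 2.31 on the log2 scale, Socs2, an inhibitor of cytokine signalling, by 2.37, Il4i1, a secreted amino acid oxidase, by 1.70, Tmem123 by 1.48 and Il15ra, which presents IL-15 to neighbouring cells, by 1.44 (edgeR adjusted p = 0.0039 to 0.0448). The other 4 tested members did not pass. Ccl22 had 132, 60.1 and 181 CPM in knockouts and 44.9, 19.9 and 41.9 CPM in flox mice (log2 fold change 1.77, adjusted p = 0.0737), and Cd274, the ligand PD-L1, had 85.7, 120 and 201 CPM, against 65.6, 29.9 and 35.9 CPM (1.52, adjusted p = 0.0884). Traf1 (0.88) and Arl5c (1.29) were higher in knockouts without passing. Among members without a Ccr7 UMI, 7 of 10 tested genes of the list rose, beside 24 calls among all 3522 genes tested. Those members include the nuclei with no set, 29 in knockouts and 4 in flox mice, of which 93.9% met the maturation count. The list had 3 calls without flox library 1 and 5 without flox library 2, and 8 to 10 with any other library left out. Without Scrublet-marked nuclei it had none, with all 10 tested genes higher in knockouts and a median log2 fold change of 1.96. Fscn1, Cacnb3 and Ccl5 were called whichever library was left out, as were Sgcz, H2-M2, Epsti1 and Ankrd33b of the genes outside the list.

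**Figure D3:**
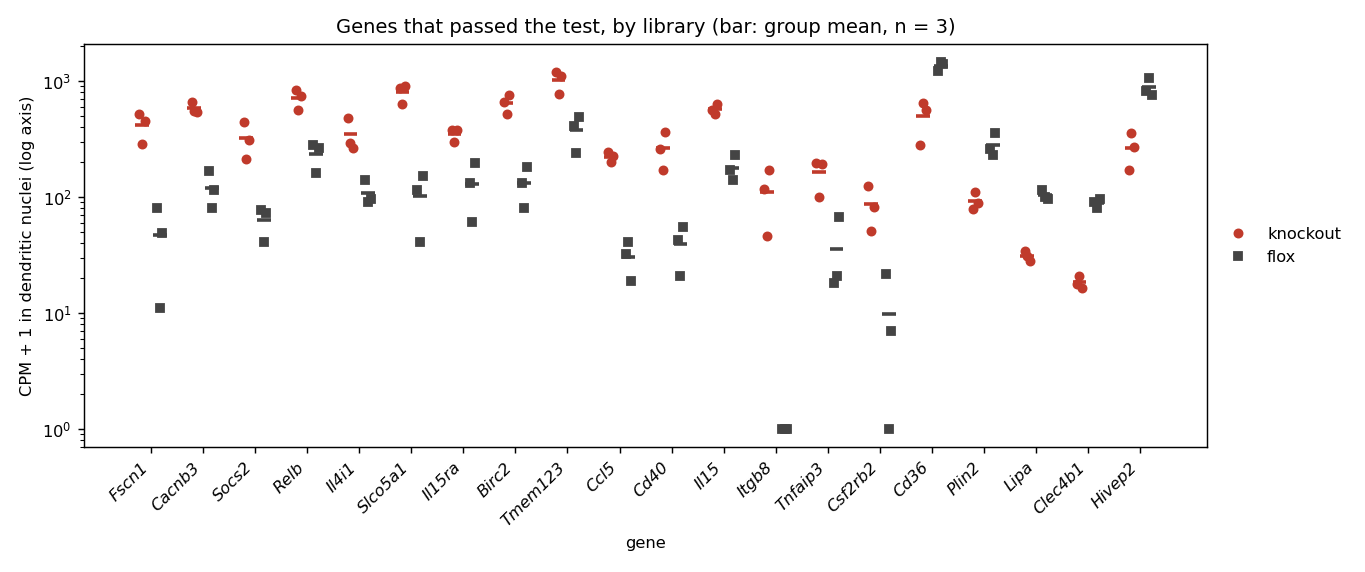
Levels of 20 genes that passed the test, as CPM + 1 in dendritic nuclei on a log axis, with knockout libraries (red circles) left of flox libraries (dark squares) for each gene; each point is 1 library and each bar a group mean (n = 3). Fscn1 runs from 285 to 524 CPM in knockouts, above 9.95 to 79.4 CPM in flox mice, Cd36 runs from 278 to 641 CPM, below 1222 to 1453 CPM, and the Itgb8 points at the bottom stand for no UMI.

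Levels inside a class are given as a description, since flox mice had 12 Ccr7-class nuclei with 50107 UMIs, against 83 nuclei with 337319 UMIs in knockouts. In that class Relb stood at 1527 CPM in knockouts and 1417 CPM in flox mice, and Cacnb3 at 1352 and 1018 CPM. Fscn1 had 946 CPM in knockouts and 279 CPM in flox mice (319 and 14 UMIs), Il15 1088 and 299 CPM (367 and 15 UMIs) and Epsti1 8823 and 2076 CPM. Cd274 and Cd36 ran the other way in it, Cd274 at 166 CPM in knockouts and 239 CPM in flox mice (56 and 12 UMIs) and Cd36 at 172 and 639 CPM (58 and 32 UMIs). Without Scrublet-marked nuclei the class kept 43, 0 and 20 nuclei in knockouts and 0, 0 and 3 in flox mice. Most of its 12 flox nuclei were thus marked. The cDC1 gene Cadm1 stood at 205 CPM in knockouts and 998 CPM in flox mice in this class, with 46 of its 50 flox UMIs in flox library 1. The part of mixed nuclei in these levels was not tested. In the Clec9a or Xcr1 class, with 303706 UMIs in knockouts and 341120 in flox mice, Wdfy4 stood at 5479 CPM in knockouts and 4919 CPM in flox mice, and H2-Ab1 at 1870 and 1744 CPM. Cd40 had 14, 3 and 8 UMIs there in the knockout libraries, against 1, 1 and 0 in the flox libraries. Slco5a1 had 5, 0 and 35 UMIs, against 0, 0 and 1, so knockout library 3 held most of them.

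Signals to T cells were mixed. Cd40 (chromosome 2, 165055627 to 165072948, plus strand), the receptor through which helper T cells license dendritic cells, had 257, 170 and 363 CPM in knockouts, against 41.4, 19.9 and 53.9 CPM in flox mice (263 ± 96.4 against 38.4 ± 17.2, log2 fold change 2.74, SE 0.39, edgeR adjusted p = 0.00866). Its groups were far apart, but it was the only one called of 9 tested costimulatory and inhibitory genes (median log2 fold change 0.60). Cd80 and Cd86, the B7 ligands of CD28, had log2 fold changes of 0.43 and 0.60 (edgeR adjusted p = 0.596 and 0.403) with overlapping libraries. Il15, a cytokine that sustains CD8+ T and NK cells, had 568, 516 and 641 CPM in knockouts and 169, 139 and 228 CPM in flox mice (log2 fold change 1.72, edgeR adjusted p = 0.00684). It was called alone among 3 tested cytokine genes of 17 listed, and Il12b was too low to test, at 72.7, 35.1 and 42.5 CPM in knockouts and 72.5, 19.9 and 41.9 CPM in flox mice.

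Of 8 tested genes linked to tolerance or regulatory T cell support, 2 rose. Tnfaip3, the NF-kappaB inhibitor A20, had 198, 100 and 193 CPM in knockouts, against 17.3, 19.9 and 65.9 CPM in flox mice (log2 fold change 2.35, edgeR adjusted p = 0.0356). Itgb8 (chromosome 12, 119158022 to 119238802, minus strand), an integrin chain that activates TGF-beta, had 116, 45.1 and 170 CPM in knockouts and no UMI in any flox library. Its 115 UMIs came from 30 nuclei, with 30 of the UMIs in 1 nucleus. Its pooled knockout level was 21.5-fold a floor of 3 UMIs over the flox group. That floor counts UMIs as independent, so it bounds no ratio between nuclei or libraries. Tgfb1 itself had a log2 fold change of -0.08 (edgeR adjusted p = 0.968). Aldh1a2, which makes retinoic acid, was too low to test in dendritic nuclei alone, at 22.4, 10.0 and 0 CPM in knockouts and 162, 59.7 and 35.9 CPM in flox mice.

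The largest rise was that of Sgcz (chromosome 8, 37522298 to 38661508, minus strand), which encodes zeta-sarcoglycan, a membrane protein of muscle. It stood at 727, 986 and 710 CPM in knockouts, with no UMI in 134 flox nuclei. Its pooled knockout level was 144-fold a floor of 3 UMIs over the flox group. That floor counts UMIs as independent, so it bounds no ratio between nuclei or libraries. The signal came from few nuclei: 10, 3 and 11 held its 390, 197 and 184 UMIs, and 1 nucleus alone held 141. Within the Ccr7 class Sgcz had 1752 CPM in 83 knockout nuclei. It had 0 of 50107 UMIs in 12 flox nuclei, most of them Scrublet-marked, where 3 UMIs would be 59.9 CPM. Macrophage nuclei had 31.7 CPM in knockouts and 1.32 CPM in flox mice. Csmd1 rested on fewer nuclei still, with 93 of its 181 knockout UMIs in 1 nucleus and 1 UMI in flox mice (ratio 101, exact 95% counting interval 18.0 to 4024). That interval counts UMIs as independent and leaves out the spread between nuclei and libraries.

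Among other large rises, Slamf1, a receptor shared by lymphocytes and mature dendritic cells, had 67.1, 65.1 and 131 CPM in knockouts and 3.45, 0 and 0 CPM in flox mice (edgeR adjusted p = 0.00866). Its 83 knockout UMIs came from 43 nuclei against 1 UMI in flox mice, a ratio of 46.5 with an exact 95% counting interval of 8.11 to 1857. Cdh2, or N-cadherin, had 231, 135 and 84.9 CPM in knockouts, against 10.4, 0 and 5.99 CPM (log2 fold change 4.43, edgeR adjusted p = 0.00866). Phf24, Rbfox1 and Ankrd35 rose with 103, 68 and 53 UMIs in knockouts against 2 each in flox mice, ratios of 28.8 (7.78 to 241), 19.0 (5.07 to 160) and 14.8 (3.91 to 126). The counting intervals of these genes and of Slamf1 likewise leave out the spread between nuclei and libraries. H2-M2, a nonclassical MHC class I gene, and Apol7c rose by 3.91 and 3.77 on the log2 scale, and Csf2rb2 by 2.90 (edgeR adjusted p = 0.0108, 0.0431 and 0.0383); each has close paralogs between which reads can be split. Epsti1 and Ankrd33b were looked up after their values were seen. Epsti1, an interferon-responsive gene, had 4860, 3465 and 3902 CPM in knockouts and 663, 836 and 898 CPM in flox mice (log2 fold change 2.41), and Ankrd33b had 736, 431 and 691 CPM, against 79.4, 49.8 and 95.8 CPM (3.05, edgeR adjusted p = 0.00166 each). Epsti1 had 7950 CPM in the Ccr7 class and 670 CPM in the Clec9a or Xcr1 class, and the interferon list as a whole had no call among 5 tested genes.

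Of the cDC1 list, only Cd36 fell among 8 tested genes outside the choice, all 8 of which had negative log2 fold changes (median -0.75). That median depended on which nuclei were summed: with 2 or more of the 8 genes required it was -0.08, with 4 of 9 tested genes higher in knockouts, in members without a Ccr7 UMI -0.34, with 3 of 8 higher, and without Scrublet-marked nuclei -0.43, with 2 of 8 higher. Cd36 (chromosome 5, 17781690 to 17888801, minus strand), a scavenger receptor for fatty acids and dead cells, had 278, 641 and 567 CPM in knockouts and 1222, 1453 and 1401 CPM in flox mice. Its groups did not overlap, as in 10.7% of genes tested in this direction (495 ± 192 against 1359 ± 122, log2 fold change -1.43, SE 0.28, edgeR adjusted p = 0.0265). Wdfy4 (chromosome 14, 32959547 to 33185508, minus strand) had 1953, 1988 and 1787 CPM in knockouts, against 3524, 3922 and 2359 CPM in flox mice (-0.72, adjusted p = 0.14), without overlap and without passing. Cadm1 (-0.78), Naaa (-1.17) and Tlr3 (-1.18) were lower in knockouts and did not pass (edgeR adjusted p = 0.13, 0.0756 and 0.0713), and Irf8 differed by -0.12 (0.888). Within the Clec9a or Xcr1 class alone, 5 of those 8 genes were higher in knockouts, with a median log2 fold change of 0.09, and no gene of 2293 was called there, 156 having an unadjusted p under 0.05.

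The lipid-handling list had 3 falls among 12 tested genes, Cd36, Plin2 and Lipa, beside 31 (0.655%) among all 4731 genes tested. Plin2, which coats lipid droplets, had 78.3, 110 and 88.8 CPM in knockouts and 259, 229 and 359 CPM in flox mice (log2 fold change -1.59, SE 0.26, edgeR adjusted p = 0.0128). Lipa, the lysosomal lipase, had 33.5, 30.0 and 27.0 CPM, against 114, 99.5 and 95.8 CPM (-1.69, SE 0.32, edgeR adjusted p = 0.0238). Both were lower in every knockout library than in every flox library. Cd36 stood at 232 CPM in the Ccr7 class and 1118 CPM in the Clec9a or Xcr1 class, and within the Clec9a or Xcr1 class at 784 CPM in knockouts and 1416 CPM in flox mice. In macrophage nuclei Cd36 stood at 2093 CPM in knockouts and 2700 CPM in flox mice, Plin2 at 510 and 605 CPM and Lipa at 223 and 277 CPM. In adipocyte nuclei the levels were 1957 and 1883 CPM, 246 and 229 CPM, and 34.4 and 46.7 CPM. In B nuclei they were 986 and 1947 CPM, 131 and 290 CPM, and 45.5 and 71.4 CPM, so all 3 genes were lower in knockouts there too. The adipocyte marker sum in dendritic nuclei was 1049, 4727 and 6040 CPM in knockouts and 2278, 6918 and 5503 CPM in flox mice. The macrophage sum was 854, 571 and 506 CPM, against 849, 1065 and 832 CPM. The part of adipocyte and macrophage RNA, or of a change shared across cell types, in the lipid genes was not tested. No lipid gene was called without knockout library 3, without flox library 1, without Scrublet-marked nuclei, with 4 or more of the 8 genes required or in members without a Ccr7 UMI; only Plin2 was without flox library 2, and Plin2 and Lipa without flox library 3. Lipa also lost its call without knockout library 1, without knockout library 2, with DESeq2 and with 2 or more of the 8 genes required, and it was too low to test in members without 3 or more genes of another tissue or lymphoid type.

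Other falls were of genes with varied roles. Hivep2, a zinc finger factor that binds NF-kappaB sites, had 170, 356 and 270 CPM in knockouts, against 825, 1065 and 761 CPM in flox mice (log2 fold change -1.71, edgeR adjusted p = 0.011). Clec4b1, a C-type lectin with close paralogs, had 16.8, 20.0 and 15.4 CPM, against 89.7, 79.6 and 95.8 CPM (-2.29, adjusted p = 0.0143), and Ccnd2, or cyclin D2, 13.04, 35.1 and 11.6 CPM, against 100.1, 59.7 and 114 CPM (-2.31, adjusted p = 0.0303). In each of these the libraries were apart by genotype. Dmd, Mical2 and Cald1, genes of the cytoskeleton, fell with log2 fold changes of -2.76, -2.90 and -2.09 (edgeR adjusted p = 0.0327, 0.0322 and 0.0383), and 50 of the 155 flox UMIs of Dmd came from 1 nucleus. All 3 also fell in macrophage nuclei, with log2 fold changes of -1.19, -1.14 and -0.69 (edgeR adjusted p = 0.0233, 0.0282 and 0.0409), and none passed the test of a difference from macrophages (edgeR interaction adjusted p = 0.0855, 0.338 and 0.233). In adipocyte nuclei Dmd stood at 558 CPM in knockouts and 817 CPM in flox mice, Mical2 at 157 and 280 CPM and Cald1 at 131 and 165 CPM. In B nuclei the levels were 200 and 544 CPM, 55.2 and 183 CPM, and 84.4 and 147 CPM. The part of adipocyte RNA, or of a change shared across cell types, in these falls was not tested. Plekhg3 and the unnamed RNA genes Gm12159 and Gm30978 fell with log2 fold changes of -1.75, -2.45 and -1.68.

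The MHC class II list had no call among 10 tested genes, 9 of which had negative log2 fold changes (median -0.47). H2-Ab1 (chromosome 17, 34257689 to 34269419, plus strand) had 1232, 1257 and 671 CPM in knockouts and 1757, 2289 and 844 CPM in flox mice, with overlap (log2 fold change -0.57, edgeR adjusted p = 0.549). Ciita, the master regulator of these genes, had 395, 340 and 220 CPM, against 452, 438 and 401 CPM (-0.37, adjusted p = 0.54). Within the Clec9a or Xcr1 class alone, 9 of 10 class II genes were higher in knockouts (median 0.22), and with 2 or more of the 8 genes required 6 of 12 were (median -0.01). Of 15 tested MHC class I genes none was called, with B2m, the light chain, nearest at 1.01 (edgeR adjusted p = 0.0582).

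Lists of cDC2 genes (5 tested outside the choice, median log2 fold change -1.06) and plasmacytoid genes (5 tested, 1.05) had no call. Plasmacytoid levels were led by knockout library 1: their sum without Siglech was 3621, 921 and 1501 CPM in knockouts, against 1008, 677 and 1192 CPM in flox mice. Of 12 tested dendritic transcription factors only Relb was called, of 10 growth factor receptors only Csf2rb2, and none of 4 pattern recognition genes or 6 chemokine receptors. Cell division genes were too low to test in all 16 cases.

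**Figure D4:**
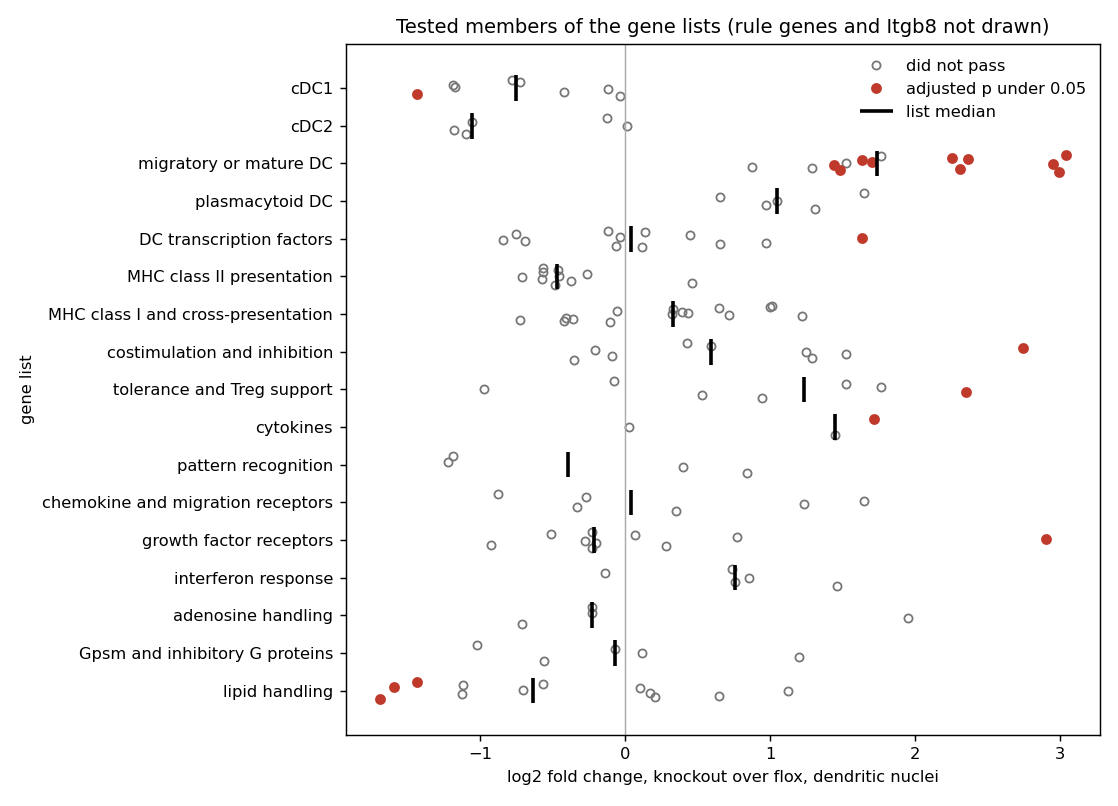
Log2 fold change, knockout over flox, in dendritic nuclei for each tested gene by list, with the genes of the choice and Itgb8 not drawn; each point is 1 gene, filled where the edgeR adjusted p was under 0.05, and each bar is the list's median. All 14 maturation genes lie right of 0 with a median of 1.74, and all 8 cDC1 genes lie left of 0 with a median of -0.75.

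Adenosine handling was listed because regulatory T cells produce adenosine. Adora2a (chromosome 10, 75316877 to 75334784, plus strand), an adenosine receptor, had 125, 50.1 and 139 CPM in knockouts and 27.6, 19.9 and 35.9 CPM in flox mice, without overlap, and missed the threshold (log2 fold change 1.95, SE 0.47, edgeR adjusted p = 0.0554). Entpd1, or CD39, had 119, 110 and 92.6 CPM, against 197, 49.8 and 120 CPM (-0.23, adjusted p = 0.842). Nt5e, or CD73, had 0 UMIs in knockouts and 2 in flox mice. Gpsm1 itself was low in dendritic nuclei, at 29.8, 5.01 and 7.72 CPM in knockouts and 13.8, 29.9 and 5.99 CPM in flox mice from 19 and 8 UMIs, and Gpsm3 was at 20.5, 35.1 and 11.6 CPM, against 31.1, 19.9 and 12.0 CPM. No inhibitory G protein or regulator passed among 5 tested, with Rgs1 nearest at 1.20 (edgeR adjusted p = 0.0745). As the deletion is labelled for regulatory T cells, these levels do not check the knockout.

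Markers of other cells were summed in the same dendritic nuclei. The T cell sum without Cd3e was 240, 165 and 162 CPM in knockouts, against 17.3, 19.9 and 59.9 CPM in flox mice, and the lymph node stroma sum 33.5, 60.1 and 15.4 CPM, against 3.45, 0 and 0 CPM, both without overlap. Madcam1 and Chst4, which define lymph node venules, were at 0 UMIs. The B cell sum without Pax5 overlapped, with 453, 1001 and 1343 CPM in knockouts and 1125, 1553 and 1886 CPM in flox mice. No gene of the T cell or lymph node stroma lists was high enough to test, so none could be called. Of the B cell list 3 genes were tested and none was called. Only 7 members held 3 or more T cell genes and none held 3 lymph node stroma genes, and the part of these sums in the dendritic results was not tested.

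Whether the genotype difference was the same in macrophages was tested in 1 fit over the dendritic and macrophage sums of each library. In macrophage nuclei alone, 802 of 14933 genes (5.37%) passed, 294 higher (1.97%) and 508 lower (3.4%) in knockouts, and 18 of the 127 dendritic calls were among them. The difference between the 2 cell types passed in 169 of 13179 genes (1.28%), 89 more positive in dendritic nuclei (0.675%) and 80 more negative (0.607%), and 68 of the 127 dendritic calls were among these. With library totals in place of the TMM scaling, the split was 76 and 116 of 192. The count was 254, 274 and 71 without knockout libraries 1, 2 and 3, and 104, 70 and 269 without flox libraries 1, 2 and 3.

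Of the 14 tested maturation genes, 7 passed this test, all more positive in dendritic nuclei, and 7 did not. Among those that passed, the log2 difference, dendritic minus macrophage, was 3.34 for Fscn1, 3.30 for Ccl5, 2.66 for Socs2, 2.13 for Birc2 and 1.17 for Relb (edgeR interaction adjusted p = 0.000667, 0.000602, 0.000378, 0.000394 and 0.0377). In macrophages these 5 genes had log2 fold changes of -0.22, -0.16, -0.26, 0.24 and 0.56, none past the threshold. Macrophage levels of the first 3 were low, at 3.92 CPM in knockouts and 4.57 CPM in flox mice for Fscn1, 3.82 and 4.15 CPM for Ccl5 and 5.19 and 6.19 CPM for Socs2. A response of these genes in macrophages could thus hardly be measured. Birc2 stood at 85.3 and 72.4 CPM there and Relb at 59.0 and 40.0 CPM. Il15ra and Tmem123 passed too. Of the 10 maturation genes that rose in dendritic nuclei, Cacnb3 (1.68), Slco5a1 (1.57) and Il4i1 (-0.51) did not pass (edgeR interaction adjusted p = 0.15, 0.285 and 0.961), and Il4i1 had a macrophage log2 fold change of 2.56 (adjusted p = 0.115). Cacnb3 stood at 1.83 CPM in knockout and 1.15 CPM in flox macrophages, and Slco5a1 at 6.04 and 2.02 CPM. Cd40 rose in both cell types, by 2.74 in dendritic and 1.07 in macrophage nuclei, and its difference of 1.60 missed the threshold (adjusted p = 0.0696). H2-Ab1 rose in macrophages by 0.68 on the log2 scale (edgeR adjusted p = 0.0432), at 588 CPM in knockouts and 369 CPM in flox mice, and the dendritic minus macrophage difference was -1.12 (interaction adjusted p = 0.0381). Of 10 tested class II genes 4 passed, all more negative in dendritic nuclei, and 6 did not, Ciita among them (-1.06, interaction adjusted p = 0.0787). Cd36 had a macrophage log2 fold change of -0.36, and the dendritic minus macrophage difference was -1.05 (interaction adjusted p = 0.0430). Of 12 tested lipid genes 2 passed more negative, 1 more positive and 9 did not pass, and of 8 tested cDC1 genes 3 passed more negative and 5 did not pass. Adora2a, not called in dendritic nuclei alone, had a difference of 2.34 (interaction adjusted p = 0.0369), with 4.28 CPM in knockout and 5.55 CPM in flox macrophages.

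**Figure D5:**
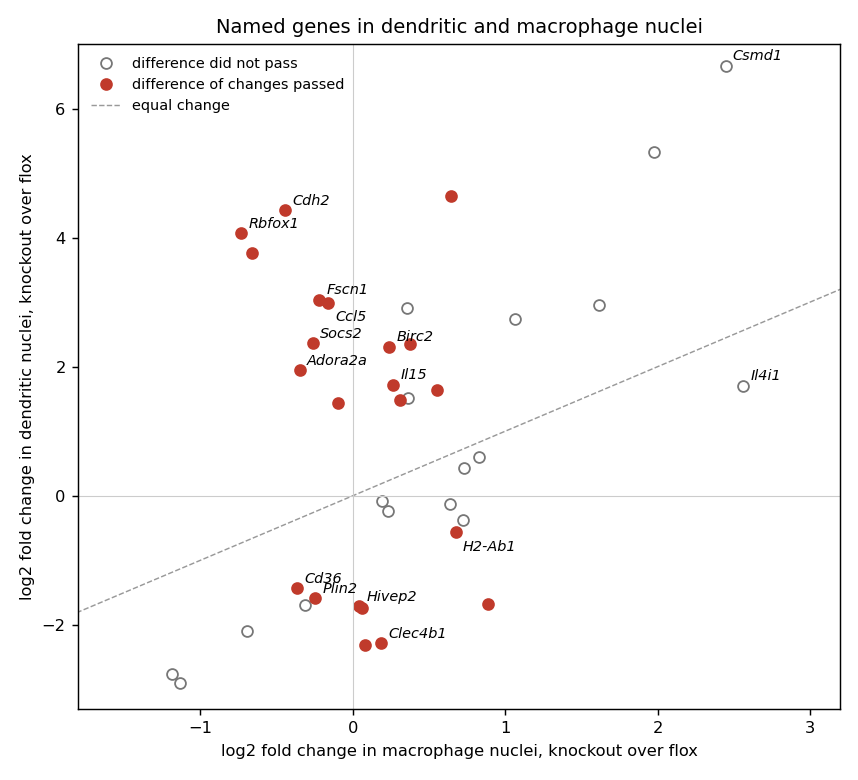
Log2 fold change, knockout over flox, in macrophage nuclei (x axis) and dendritic nuclei (y axis) for named genes tested in both, with points filled where the difference of the changes passed and a dashed line where both changes are equal. Fscn1, Ccl5 and Socs2 lie high on the y axis (3.04, 2.99 and 2.37) close to 0 on the x axis, and Clec4b1 and Hivep2 lie low (-2.29 and -1.71) close to 0 on the x axis. Mean macrophage levels of Fscn1, Ccl5 and Socs2 were only 3.82 to 6.19 CPM.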

How the data were processed

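Single-nucleus RNA-seq UMI counts per gene and barcode were deposited by the authors as 6 matrices of 32285 mouse genes, made with Cell Ranger 7.1 per the submitters' processing notes, which name the builds mm10 and GRCh38. How barcodes were filtered and whether intronic reads were counted is not given in the sources used here. Gene positions came from GENCODE vM21 (mm10), which holds 99.6% of the files' identifiers.

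Nuclei were chosen by the rule in the report, and macrophage, B and T nuclei by 3 or more genes of a marker list and no membership. The members and gene lists were chosen with earlier results of these data known. UMIs were summed per library and tested with edgeR 4.0.16 (R 4.3.3; TMM scaling, filterByExpr, robust quasi-likelihood fit, Benjamini-Hochberg adjustment over all genes tested), with dendritic and macrophage sums of a library sharing a term in the second fit. CPM used the total UMIs of the summed nuclei. Shares and ratios of nuclei that met the rule were compared over libraries by exact two-sided permutation (scipy 1.17.1), as were shares of these nuclei by genes outside it. Such tests compare how often the rule was met, and the class shares are given without a test. Doublets were scored with Scrublet (scanpy 1.11.5) at 0.8% per 1000 barcodes and kept. The labels give 3 mice per genotype and do not tie a mouse to a library, so p-values measure the spread between libraries. The code was tested on simulated data.

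Named genes were the 20 furthest above the other nuclei (log2 ratio of CPM + 5, at least 50 CPM), the 10 largest rises and falls with separate libraries, every listed gene past the threshold, and a set chosen for dendritic and regulatory T cell biology; 10 more are Epsti1, Ankrd33b, Naaa, Cadm1, Wdfy4, Cd74, Traf1, Arl5c, Tcf4 and Runx2, added after their values were seen. The genes Clec7a, Mx1, Mx2 and Fdcsp were not analysed here.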

Additional observations from a re-analysis of the deposited data

Results flagged for a closer look

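Results are given here where the genotype difference in dendritic nuclei differed from that in macrophage nuclei by the interaction test (edgeR adjusted p under 0.05), which 169 of 13179 genes did. Values are log2 differences, the dendritic change minus the macrophage change. With 3 libraries per group, single libraries were not tested as outliers.

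Of 14 tested maturation genes, 7 were more positive in dendritic nuclei, at 3.34 for Fscn1, 3.30 for Ccl5, 2.66 for Socs2, 2.13 for Birc2, 1.67 for Il15ra, 1.27 for Tmem123 and 1.17 for Relb. Among these 7, Fscn1, Ccl5 and Socs2 had mean levels of only 3.82 to 6.19 CPM in macrophage nuclei. The other 7 did not pass, among them Cacnb3 (1.68), Slco5a1 (1.57), Ccl22 (1.35), Traf1 (0.13) and Il4i1 (-0.51), with edgeR adjusted p = 0.15, 0.285, 0.632, 0.974 and 0.961. The cytokine gene Il15 stood at 1.50, Tnfaip3 at 2.01 and the adenosine receptor gene Adora2a at 2.34. Among the largest rises, Cdh2 was at 4.93, Rbfox1 at 5.15, Ankrd35 at 4.68 and Phf24 at 4.17, the last 3 with 2 flox UMIs each in dendritic nuclei. The Itgb8 value of 11.66 rests on a flox group with no UMI and bounds nothing. Epsti1 (1.77) and Ankrd33b (3.07) were added after their values were seen.

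Of 12 tested lipid genes, Cd36 (-1.05) and Plin2 (-1.23) were more negative in dendritic nuclei, Abcg1, a cholesterol exporter named after its value was seen, was more positive (1.32, edgeR adjusted p = 0.0391), and 9 did not pass. Also more negative were Hivep2 (-1.70), Ccnd2 (-2.29), Clec4b1 (-2.44), Plekhg3 (-1.75) and Gm30978 (-2.50), and Aldh1a2 (-3.36), which had 14 UMIs in knockout and 59 in flox dendritic nuclei. H2-Ab1 (-1.12) was likewise more negative, as were Cd74 (-1.17), the invariant chain of MHC class II, and the cDC1 genes Naaa (-1.67) and Wdfy4 (-1.15), the last 3 added after their values were seen. The cDC1 list had 3 of 8 tested genes past the threshold, and Cadm1 among the other 5 stood at 0.32 (adjusted p = 0.824). The class II list had 4 of 10 past it, and Ciita among the other 6 stood at -1.06 (adjusted p = 0.0787). In macrophages H2-Ab1, Cd74, Naaa and Wdfy4 rose by 0.68, 0.71, 0.54 and 0.54 on the log2 scale (edgeR adjusted p = 0.0432, 0.0346, 0.0352 and 0.0492).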

How the results depend on the processing

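The 127 genes called in dendritic nuclei became 404 without a filter on low counts, 460 with 2 of the 8 genes required, 0 without Scrublet-marked nuclei, and, as alternatives chosen after seeing the data, 0 in the Clec9a or Xcr1 class alone and 24 in members without a Ccr7 UMI. DESeq2 called 150, library totals 130, 4 required genes 93, nuclei of 1000 or more genes 114 and members without 3 or more genes of another tissue or lymphoid type 171. Leaving out 1 library gave 8 to 163. The 169 genes that differed from macrophages became 308 without a filter, 56 without marked nuclei, 392 without members holding other markers, and 70 to 274 with 1 library left out. Same-numbered libraries deviated together with r = 0.231, 0.0905 and 0.123, each the highest of its row, which is a hint and no pairing; with a replicate block 241 genes were called. The cause of these moves was not tested.

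The Siglech share difference ranged from -0.0762 (without flox library 1 or 2) to 3.15 percentage points with 1 library left out, against 0.999. With 1 library left out, the difference in the share of kept nuclei was 0.138 to 0.557, per macrophage nuclei 2.17 to 9.04, per B and T nuclei -5.57 to -1.39, in the thinned share 0.0374 to 0.382, in the Ccr7 share 19.7 to 26.3 and in the Clec9a or Xcr1 share -33.1 to -23.0. The class shares are descriptions, and no test of the others can give p under 0.1.

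Genes not called changed sign in places: Entpd1 (0.053 without marked nuclei, -0.52 to 0.31 with 1 library left out, 0.45 in the Clec9a or Xcr1 class, 0.17 without a Ccr7 UMI), Irf8 (0.60 with 2 genes required, 0.024 without marked nuclei, -0.35 to 0.033 with 1 library left out, 0.35 in the class, 0.20 without a Ccr7 UMI), Ciita (0.20 with 2 genes required, 0.31 in the class), Tgfb1 (0.037 without marked nuclei, -0.60 to 0.39 with 1 library left out, among them 0.25 without knockout library 3, 0.32 without a Ccr7 UMI), and in the class Cadm1 (0.054), Wdfy4 (0.12) and Cd74 (0.0061). Of all values for 56 single genes, 629 kept direction and side of the threshold, 155 no longer passed, 20 newly passed and 18 changed sign.

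Depth limits the description: 134 flox nuclei gave 557211 UMIs, and 4731 of 32285 genes were tested.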
